A study of Homo sapiens with 6 samples.

Results

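The 47 genes described here are the mitosis and G2-M genes, a fixed list of genes whose products carry a cell from the end of DNA replication through chromosome segregation and division. They were taken by symbol from the deposited gene table, with the condition that a gene had 10 or more estimated counts in at least 3 of the 6 libraries. The rule itself uses no measured difference between the groups, but the list was chosen with earlier results of these data known. Counts of its genes set beside shares of all genes are therefore a description and not independent support. All 47 listed genes met the condition, out of 58884 genes in the table and 15296 that met the same count minimum. The lowest estimated count of any of them in any library was 297, for CENPE.

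RNA-seq was done on total RNA of T0519 cells, a line labelled as immortalized human cardiomyocytes. The study's text names T0519 and AC16 as separate lines and describes this comparison as made in AC16, so the line is given here as labelled. A group of 3 libraries came from cells given a negative control siRNA (NC), and the other 3 from cells in which CIRBP, a cold-inducible RNA-binding protein, was knocked down by siRNA (SiCIRBP). Both groups were grown in the same serum-containing medium and no other treatment is given for either. All libraries carry the same line label. The comparison asked which transcripts differed when CIRBP was lowered. The study left NC_1 and SiCIRBP_2 out of its own RNA-seq comparison, as the most discrepant by correlation and principal component analysis. For that reason NC_2, NC_3, SiCIRBP_1 and SiCIRBP_3 were compared first here, and all 6 libraries were compared beside them. The libraries were chosen on these same data, so the 4-library spread, and the p-values that rest on it, may be too small. Values are normalised counts scaled to the library size (CPM), and fold changes are on the log2 scale, SiCIRBP against NC, with the standard error (SE). A gene is said to have risen or fallen where the edgeR quasi-likelihood test gave a Benjamini-Hochberg adjusted p under 0.05 over the 15421 genes tested in the 4 libraries. The labels do not say whether replicates were separate cultures, so the p-values measure the spread between these libraries, which may be technical.

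Entry into mitosis depends on CDK1 bound to cyclin B, which CDC25 phosphatases switch on, and on the kinases PLK1, AURKA and AURKB. The spindle checkpoint holds the cell in metaphase until every kinetochore is attached, and the anaphase-promoting complex with CDC20 then marks cyclin B and securin for destruction. Transcripts of many of these genes accumulate late in the cell cycle under FOXM1 and MYBL2 and are held low outside it by the DREAM repressor, which binds a short promoter element, the cell cycle genes homology region (CHR), that often lies close to CCAAT boxes. In working adult cardiac muscle the programme is largely silent, whereas in dividing cell lines it runs in every cycle. In bulk RNA, more cells in G2 or mitosis and more of these transcripts in each such cell cannot be told apart.

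The letters of the CHR and of the CCAAT box were common in the promoters of these genes, in those that rose and in those that did not. RefSeq promoters (GRCh38.p14, 250 bases before to 50 after a transcript start) were matched by symbol for 40 of the 47 genes, 6 of which had more than 1 promoter entry, and a gene was counted if any entry held the letters. TTTGAA or TTTAAA, searched on both strands, stood in the promoters of 35 of the 40 genes (87.5%), against 27.9% of the 27305 genes of the whole table, 24.0% of its 35116 promoters and 20.9% of the 10585 tested genes that had a promoter. Within 50 bases of the start the counts were 31 of 40 (77.5%) and 6.90% of the tested genes. At least 2 copies of CCAAT on either strand stood in 20 of the 40 (50%), against 15.8% of the tested genes, and both features stood in 19 of the 40 (47.5%), against 2.91%. Among the matched genes that rose over the 4 libraries 18 of 21 held the CHR letters, and among those not called 17 of 19 did. TTTAAA reads the same on both strands, so strand can be counted for TTTGAA only, and of its 30 matches within 50 bases of a start 25 were on the sense strand. Across all entries 5 pairs of matches overlapped. A match is a description of the letters and does not show that a protein binds there.

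Short stretches around the CHR letters nearest before the start are shown for KIF20A, CENPA, CCNB1 and PLK1, which had some of the highest fold changes of the list. They do not stand for all of the highest. DLGAP5 (0.655) was above PLK1 (0.651), and its nearest CHR letters before the start were at position -109, with a further match at 4. MYBL2 (0.650) had no match in its first promoter entry. Each stretch shown runs 5′ to 3′ on the gene's strand, 30 bases long, with the CHR letters in capitals.
KIF20A (chr5:138179059-138179088, plus strand): cgcagcgcgtaaTTTAAAatattgtatctg
CENPA (chr2:26786026-26786055, plus strand): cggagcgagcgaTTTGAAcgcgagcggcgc
CCNB1 (chr5:69167108-69167137, plus strand): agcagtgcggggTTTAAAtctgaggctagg
PLK1 (chr16:23678848-23678877, plus strand): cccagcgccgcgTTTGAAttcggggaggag
The first base of the capitals lay 41 bases before the RefSeq start in KIF20A, 18 in CENPA, 30 in CCNB1 and 29 in PLK1. In each the letters thus sit just ahead of that start, while the GENCODE 29 gene begins upstream of the stretch.

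Longer stretches, the 120 bases before the start, are shown so that layouts can be set side by side. KIF11, ESPL1, MKI67 and CDC20 rose, and CENPF, KIF4A and CKAP2 were not called. The stretches do not stand for a contrast. Over all matched genes 85.7% of those that rose and 89.5% of those not called held the CHR letters. Capitals mark TTTGAA or TTTAAA and CCAAT on the strand shown, or their reverse complements (TTCAAA and ATTGG).
KIF11 (chr10:92593010-92593129, plus strand): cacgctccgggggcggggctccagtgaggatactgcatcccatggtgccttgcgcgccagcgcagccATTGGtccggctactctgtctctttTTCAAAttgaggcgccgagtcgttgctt
ESPL1 (chr12:53268179-53268298, plus strand): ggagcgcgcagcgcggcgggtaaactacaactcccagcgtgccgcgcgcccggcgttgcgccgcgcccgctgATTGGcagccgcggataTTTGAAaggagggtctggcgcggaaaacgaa
MKI67 (chr10:128126424-128126543, minus strand): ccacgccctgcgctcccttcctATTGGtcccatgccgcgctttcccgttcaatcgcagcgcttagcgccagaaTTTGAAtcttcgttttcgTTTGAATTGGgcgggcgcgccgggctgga
CDC20 (chr1:43358861-43358980, plus strand): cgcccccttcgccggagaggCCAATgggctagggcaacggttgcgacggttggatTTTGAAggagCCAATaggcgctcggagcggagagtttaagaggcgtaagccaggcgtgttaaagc
CENPF (chr1:214603075-214603194, plus strand): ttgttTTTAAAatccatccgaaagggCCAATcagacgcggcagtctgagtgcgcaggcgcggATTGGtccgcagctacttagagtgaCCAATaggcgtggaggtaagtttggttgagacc
KIF4A (chrX:70289984-70290103, plus strand): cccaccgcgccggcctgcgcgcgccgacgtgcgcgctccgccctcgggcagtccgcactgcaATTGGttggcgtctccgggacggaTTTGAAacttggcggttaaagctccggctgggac
CKAP2 (chr13:52455868-52455987, plus strand): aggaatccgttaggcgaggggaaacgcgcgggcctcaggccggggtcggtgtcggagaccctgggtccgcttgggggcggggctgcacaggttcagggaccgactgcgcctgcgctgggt
ESPL1, which rose, and KIF4A, which did not pass the test, have the same layout of a reversed CCAAT box followed by the CHR letters a short way before the start. MKI67 holds the CHR letters in 2 places, the second sharing a base with a reversed CCAAT box. CKAP2 holds neither motif in the stretch shown. It only just missed the edgeR threshold (adjusted p = 0.0541), and DESeq2 on the same libraries called it higher (adjusted p = 0.0248).

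Library totals ran from 25726259 to 29919566 estimated counts. CIRBP itself was at 86.4, 85.8 and 91.0 CPM in NC_1 to NC_3 and at 54.8, 24.3 and 46.3 CPM in SiCIRBP_1 to SiCIRBP_3, so the groups did not overlap and SiCIRBP_2 was the lowest. Its log2 fold change was -0.81 ± 0.11 (SE, adjusted p = 0.00828, edgeR, n = 2 against 2), and over all 6 libraries -1.07 (adjusted p = 0.103 in edgeR, 0.00411 in DESeq2, exact two-sided permutation p = 0.1, the smallest that 3 against 3 allows). Of 15 cardiomyocyte markers, 11 stayed under 1 TPM in every library, the myosin heavy chains MYH6 and MYH7, the troponin TNNT2, RYR2 and PLN among them, while the transcription factor GATA4 had 22.6 to 63.0 TPM. The 15 summed to between 41.2 and 89.6 TPM, and 12 fibroblast markers to between 3921 and 5582 TPM. Of those 12, 2 stayed under 1 TPM in every library, and the sum is not split by gene here, so it names no cell type. Another 11 markers, of endothelium, smooth muscle and leukocytes, had 6 under 1 TPM in every library. They summed to between 161 and 379 TPM in 5 libraries and 1267 TPM in SiCIRBP_2, nearly all of it TAGLN.

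A pair of libraries stood apart from their groups, and this bears on every count below. In NC_1 the mitosis and G2-M genes were higher than in the other NC libraries: 43 of the 47 had their highest NC value there, against 40.4% of all 15217 genes tested in the 6 libraries. Relative to the mean of the 3 NC libraries their median log2 difference was 0.20 in NC_1, -0.05 in NC_2 and -0.14 in NC_3, and 0.26, 0.33 and 0.27 in SiCIRBP_1, SiCIRBP_2 and SiCIRBP_3, while the median of all genes was within 0.02 of 0 in each. Over these genes the median absolute log2 difference between NC_1 and SiCIRBP_1 was 0.11, smaller than the 0.27 between NC_1 and NC_2, whereas over all genes the same distances were 0.18 and 0.15. SiCIRBP_2 carried a different mark. There 20 interferon-stimulated genes summed to 6930 TPM, against 376 and 1364 TPM in SiCIRBP_1 and SiCIRBP_3 and 734 to 748 TPM in the NC libraries, and the part of this in the values below was not tested. Over the 4 libraries edgeR called none of those 20 genes, and 0 had an unadjusted p under 0.05.

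**Figure D1:**
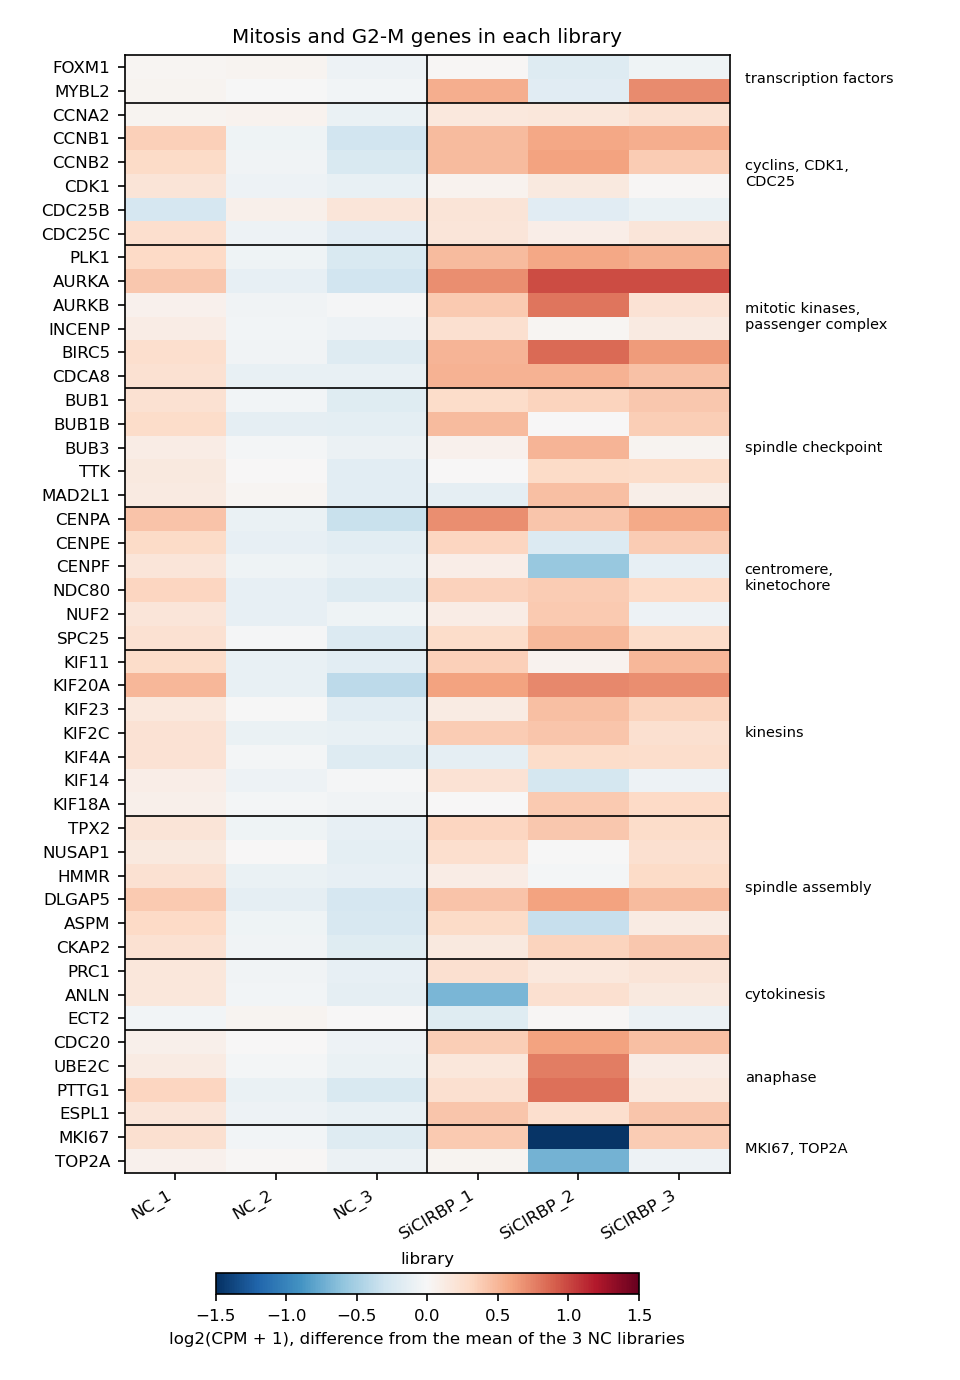
The 47 mitosis and G2-M genes in each of the 6 libraries, grouped by role. Colour gives the difference of log2(CPM + 1) from the mean of the 3 NC libraries, red for higher and blue for lower. NC_1 is red for most genes although it is a control library, and SiCIRBP_2 holds both the darkest blue cell, MKI67, and many red ones.

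Over the 4 libraries 24 of the 47 genes rose and none fell by edgeR, where 9.62% of all genes rose and 9.76% fell. The log2 fold change was above 0 for 43 of the 47, with a median of 0.37, against a median of -0.00 for all genes. The changes were mostly small: AURKA was the only gene of the list that rose at least 2-fold and passed the test, as 1.82% of all genes did. DESeq2 on the same libraries called 25 of the 47, all higher, where it called 9.68% of all genes higher and 10.4% lower.

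With all 6 libraries no gene of the list was called by edgeR, where 0.0% of all genes were called, and the median log2 fold change was 0.28 with 39 of 47 above 0. The smallest adjusted p of the list was 0.0965, for AURKA, and 15 of the 47 had an unadjusted p under 0.05, all higher, against 23.7% of all genes in either direction. DESeq2 over the 6 libraries called 5 of the 47, all higher: AURKA (adjusted p = 0.0025), BIRC5 (0.0059), CDC20 (0.0076), CDCA8 (0.021) and PLK1 (0.036), against 4.91% of all genes called higher and 5.09% called lower. With SiCIRBP_2 alone left out edgeR called 4 (MYBL2, CDC20, BIRC5 and AURKA), all higher, where 3.57% of all genes were called higher and 3.63% lower. With NC_1 alone left out edgeR called none of the 47, where 0.0322% of all genes were called higher and 0.0837% lower. The smallest adjusted p of the list was then 0.0789. In that fit 22 of the 47 had an unadjusted p under 0.05, all higher, and the share of all genes at this unadjusted threshold is not given here. For 16 of the 47 genes all 3 SiCIRBP values lay above all 3 NC values, and for none did they lie below, against 16.2% and 16.6% of all genes. For 30 of the 47, NC_1 was at or above the lowest SiCIRBP library, against a higher share, 77.2%, of all genes. That share also holds the genes that were lower in SiCIRBP.

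Measured against NC_2 and NC_3 only, the median log2 difference of the list was 0.39, 0.43 and 0.37 in the 3 SiCIRBP libraries. Measured against NC_1 only, a comparison chosen after the data were seen, it was 0.052, 0.10 and 0.088. On the deposited TPM scale the median of all genes itself shifted, by -0.18 in SiCIRBP_2 and -0.07 in the others, and relative to that shift the list was higher by 0.24 in SiCIRBP_1 and SiCIRBP_2 and by 0.25 in SiCIRBP_3. Of the 24 genes that rose in counts over the 4 libraries, 23 were also higher in TPM, the exception being CENPE.

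**Figure D2:**
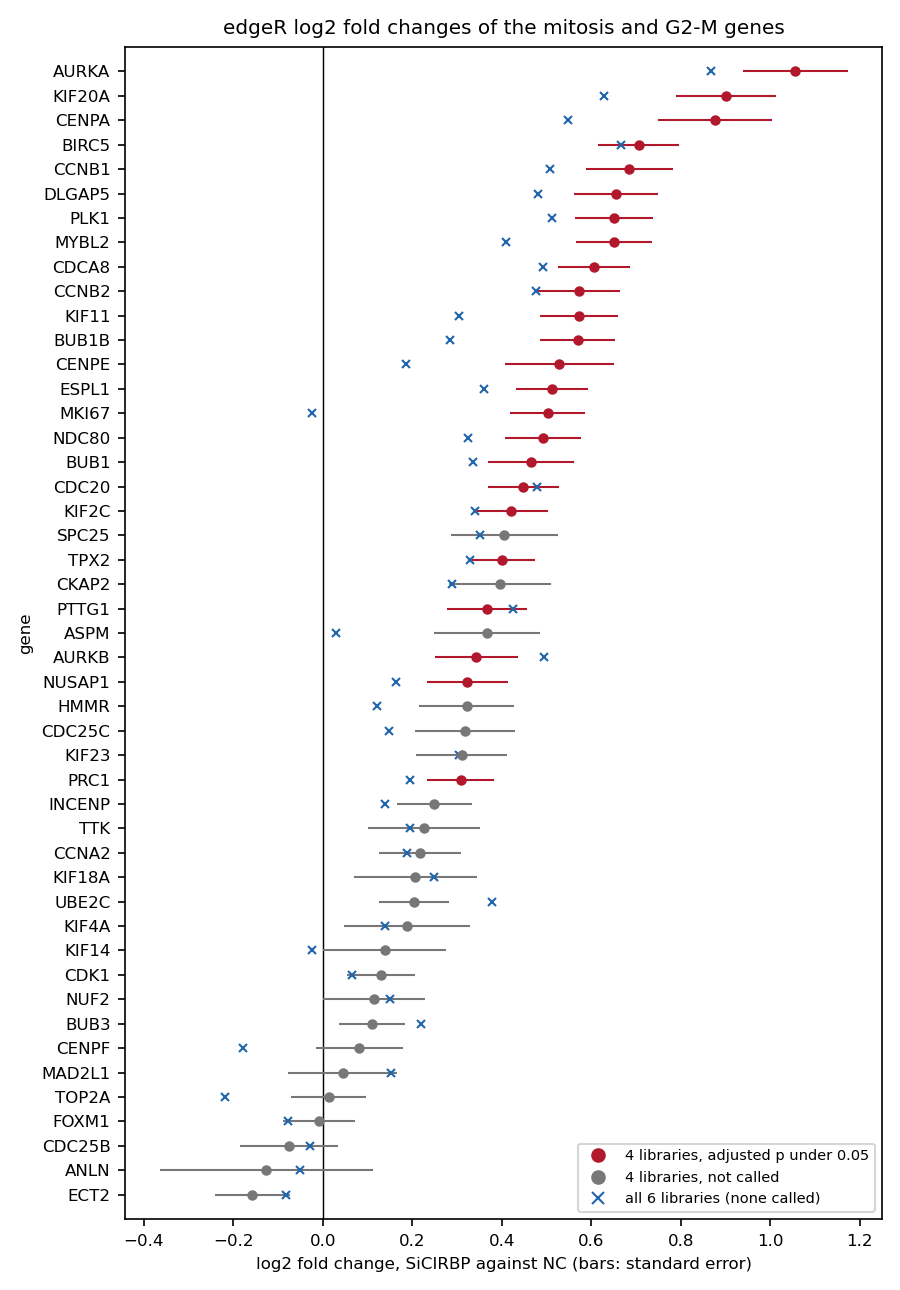
Log2 fold change of each of the 47 genes, SiCIRBP against NC. Circles are the 4-library edgeR estimates with bars for the SE, red where the adjusted p was under 0.05 (24 genes) and grey otherwise, and crosses are the estimates over all 6 libraries, of which none was called. The crosses lie to the left of the circles for most genes, and MKI67 moves furthest.

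The mitotic kinases and the chromosomal passenger complex were the group with the highest median, 0.63 over 4 libraries and 0.50 over 6, and 5 of its 6 genes rose. AURKA, the kinase that matures centrosomes and builds the spindle poles (chr20:56369389-56392337, minus strand, GRCh38), was at 234, 162 and 144 CPM in NC_1 to NC_3 and at 287, 349.7 and 349 CPM in SiCIRBP_1 to SiCIRBP_3. The groups did not overlap and NC_1 was the nearest control to the treated libraries. The log2 fold change was 1.06 ± 0.12 (SE, adjusted p = 0.0059) over 4 libraries and 0.87 ± 0.19 over 6. Of the 31-base words of its annotated transcripts, 16.2% also occur in other genes, the most in RAB3GAP2 (11.9%).

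PLK1, a kinase needed for mitotic entry, spindle assembly and cytokinesis, was at 253, 196 and 175 CPM in the NC libraries and at 285, 306 and 297 CPM in the SiCIRBP libraries. Here too every SiCIRBP value was above every NC value, and the log2 fold change was 0.65 ± 0.09 (adjusted p = 0.0082). AURKB, the kinase of the passenger complex that corrects faulty attachments, was at 87.1, 80.3 and 82.2 CPM against 109, 146 and 97.0 CPM. Its controls were tight and SiCIRBP_2 was far the highest, so that its log2 fold change was larger over 6 libraries (0.49) than over 4 (0.34 ± 0.09, adjusted p = 0.0448).

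BIRC5, or survivin, which brings the passenger complex to centromeres, was at 217, 176 and 159 CPM in NC and at 261, 331 and 285 CPM in SiCIRBP, with a log2 fold change of 0.71 ± 0.09 (adjusted p = 0.0073). CDCA8, or borealin, its partner in the complex, was at 112, 88.0 and 88.0 CPM in NC and at 137, 138 and 130.2 CPM in SiCIRBP, with a log2 fold change of 0.61 ± 0.08 (adjusted p = 0.0082). Neither gene's groups overlapped. INCENP, the scaffold of the same complex, did not pass the test (log2 fold change 0.25 ± 0.08, adjusted p = 0.0808).

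Among the cyclins, CDK1 and the CDC25 phosphatases, the B-type cyclins rose and their kinase was not called. CCNB1, the main mitotic cyclin, was at 345, 257 and 219 CPM in NC and at 374, 402 and 392 CPM in SiCIRBP (log2 fold change 0.68 ± 0.10, adjusted p = 0.0094). CCNB2 was at 179, 141 and 125 CPM in NC and at 204, 223 and 192 CPM in SiCIRBP (0.57 ± 0.09, adjusted p = 0.0129). In both the groups did not overlap, and NC_1 was the highest control.

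CDK1, which the B-type cyclins activate, was at 163, 134 and 131 CPM in NC and at 147, 158 and 143 CPM in SiCIRBP. Its highest value of all was in NC_1, and its log2 fold change was 0.13 ± 0.08 (adjusted p = 0.27). CCNA2, the cyclin of S phase and G2, was at 89.6, 90.4 and 81.0 CPM in NC and at 97.0, 98.1 and 102 CPM in SiCIRBP. Those groups did not overlap, but the difference was small and did not pass the test (0.22 ± 0.09, adjusted p = 0.14). CDC25C, a phosphatase that activates CDK1, had a log2 fold change of 0.32 ± 0.11 (adjusted p = 0.0907). CDC25B, a phosphatase of the same family, was at 394, 498 and 534 CPM in NC and at 537, 421 and 441 CPM in SiCIRBP, with NC_1 the lowest of all, and its log2 fold change was -0.08 ± 0.11.

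The transcription factors of the programme differed from each other. FOXM1 was at 417, 423 and 389.6 CPM in NC and at 414, 358 and 393 CPM in SiCIRBP, which overlapped, with a log2 fold change of -0.01 ± 0.08 (adjusted p = 0.95). MYBL2 was at 364, 354 and 346 CPM in NC and at 518, 314 and 579.7 CPM in SiCIRBP. The controls were close together, SiCIRBP_1 and SiCIRBP_3 stood above them and SiCIRBP_2 below. Over the 4 libraries MYBL2 rose by 0.65 ± 0.08 (adjusted p = 0.0079), and over 6 the estimate was 0.41 ± 0.21 (adjusted p = 0.27). Exons of other genes on the opposite strand cover 15.9% of the exon bases of FOXM1 and 12.5% of those of PLK1, and whether the counting used strand is not given in the sources used here.

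Of 5 spindle checkpoint genes, BUB1 and BUB1B rose, and the group's median was 0.23 over 4 libraries. BUB1B, the kinase-like subunit of the mitotic checkpoint complex, was at 102, 76.1 and 75.8 CPM in NC and at 116, 83.9 and 109 CPM in SiCIRBP. NC_1 was above SiCIRBP_2, so the groups overlapped over 6 libraries, while over 4 the log2 fold change was 0.57 ± 0.08 (adjusted p = 0.0102). BUB1, the kinase that places checkpoint proteins at kinetochores, was at 85.0, 70.1 and 63.7 CPM in NC and at 88.0, 91.4 and 96.4 CPM in SiCIRBP, without overlap (0.46 ± 0.10, adjusted p = 0.0227). The checkpoint kinase TTK (0.23 ± 0.13), BUB3 (0.11 ± 0.07) and MAD2L1 (0.04 ± 0.12), a subunit of the complex that inhibits CDC20, did not pass the test.

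In the centromere and kinetochore group, 3 of 6 genes rose and the median was 0.45 over 4 libraries and 0.26 over 6. CENPA, the histone variant that marks centromeres, was at 31.9, 21.7 and 18.4 CPM in NC and at 38.4, 31.7 and 35.2 CPM in SiCIRBP. NC_1 was just above SiCIRBP_2, and without those libraries the log2 fold change was 0.88 ± 0.13 (adjusted p = 0.0098). NDC80, which grips microtubules, rose by 0.49 ± 0.09 (adjusted p = 0.0151). SPC25, its partner in the NDC80 complex, was at 25.7, 21.5 and 18.8 CPM in NC and at 26.7, 30.9 and 26.6 CPM in SiCIRBP, without overlap, and missed the threshold (0.41 ± 0.12, adjusted p = 0.0573).

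NUF2, of the same complex, was not called (0.11 ± 0.11). The long kinetochore proteins behaved unevenly across libraries. CENPF was at 155, 97.5 and 133 CPM in SiCIRBP_1 to SiCIRBP_3, and its log2 fold change was 0.08 ± 0.10 over 4 libraries and -0.18 over 6. CENPE, the kinesin that moves chromosomes to the spindle equator, rose by 0.53 ± 0.12 in counts (adjusted p = 0.0302) but was lower by 0.13 in log2(TPM + 1), so that its direction depends on the scale, and at 2.9 TPM on average it was the lowest of the list.

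Of 7 mitotic kinesins 3 rose and the group's median was 0.31. KIF20A, which acts on the central spindle, was at 168, 109.5 and 89.97 CPM in NC and at 179.7, 195 and 192 CPM in SiCIRBP. The groups did not overlap, but NC_1 lay nearer to SiCIRBP_1 than to NC_2, and the log2 fold change fell from 0.90 ± 0.11 (adjusted p = 0.0071) over 4 libraries to 0.63 ± 0.22 over 6. KIF2C, a microtubule depolymerase at centromeres, was at 178, 143 and 142 CPM in NC and at 199.8, 204 and 181 CPM in SiCIRBP (0.42 ± 0.08, adjusted p = 0.0211). KIF11, the motor that pushes spindle poles apart, rose by 0.57 ± 0.09 (adjusted p = 0.0114), with 115 CPM in SiCIRBP_2 against 142 and 158 CPM in the other SiCIRBP libraries. The other 4 kinesins (KIF23, KIF4A, KIF14 and KIF18A) had log2 fold changes of 0.14 to 0.31 and were not called. KIF4A shares 27.3% of its 31-base words with other genes, mostly its retrocopy KIF4B, which had 9 to 28 estimated counts.

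Among the spindle assembly factors 3 of 6 rose, with a median of 0.38 over 4 libraries and 0.23 over 6. DLGAP5, a microtubule-bundling protein, was at 64.3, 44.3 and 40.9 CPM in NC and at 65.8, 74.6 and 68.2 CPM in SiCIRBP, so that the groups did not overlap by a narrow margin (0.65 ± 0.09, adjusted p = 0.0095). TPX2, the activator of AURKA, was at 461, 384 and 368 CPM in NC and at 505, 533 and 486 CPM in SiCIRBP (0.40 ± 0.07, adjusted p = 0.0179). NUSAP1 rose by 0.32 ± 0.09, just inside the threshold (adjusted p = 0.0492), but 61.4% of its 31-base words are shared with other annotated genes, mainly the overlapping AC087721.2, so its level is uncertain. CKAP2 (0.40 ± 0.11, adjusted p = 0.0541), ASPM (0.37 ± 0.12) and HMMR (0.32 ± 0.11) were not called.

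The anaphase genes rose in 3 of 4 cases, with a median of 0.41. CDC20, the activator of the anaphase-promoting complex, was at 261, 249 and 236 CPM in NC and at 321, 378 and 341 CPM in SiCIRBP. NC_1 lay with its controls here, no values overlapped, and the log2 fold change was 0.45 ± 0.08 over 4 libraries (adjusted p = 0.0156) and 0.48 ± 0.11 over 6. ESPL1, or separase, which cuts cohesin, was at 90.4, 75.8 and 74.0 CPM in NC and at 106, 94.9 and 107 CPM in SiCIRBP (0.51 ± 0.08, adjusted p = 0.0117). PTTG1, or securin, which holds separase inactive, rose by 0.37 ± 0.09 (adjusted p = 0.0348), with 161 CPM in SiCIRBP_2 against 107 and 101 CPM in the others. UBE2C, the ubiquitin-conjugating enzyme of the complex and by TPM the most abundant of the list (568 TPM on average), was at 343 CPM in SiCIRBP_2 against 227 and 217 CPM, and was not called over the 4 libraries (0.20 ± 0.08, adjusted p = 0.11).

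The central spindle and cytokinesis genes had the lowest median over the 4 libraries, -0.13, and PRC1 alone of the 3 rose. That median is the value of ANLN itself. Over 6 libraries the group's median was -0.05, and that of MKI67 and TOP2A was lower, at -0.12. PRC1, which bundles the antiparallel microtubules of the midzone, was at 417, 356 and 340.0 CPM in NC and at 438, 411 and 423 CPM in SiCIRBP (0.31 ± 0.07, adjusted p = 0.0346), and 55.2% of its 31-base words are shared with other genes, mainly AC068831.7. ANLN, or anillin, of the contractile ring, was at 223, 191 and 179.6 CPM in NC and at 122, 234 and 218 CPM in SiCIRBP. Its low value in SiCIRBP_1 stood alone. Without that library, which leaves SiCIRBP_3 alone in its group, its log2 fold change was 0.22 in place of -0.13 ± 0.24. ECT2, which activates RhoA at the midzone, was at 106, 112 and 109.5 CPM in NC and at 95.9, 110.3 and 103 CPM in SiCIRBP, with a log2 fold change of -0.16 ± 0.08 (adjusted p = 0.22).

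**Figure D3:**
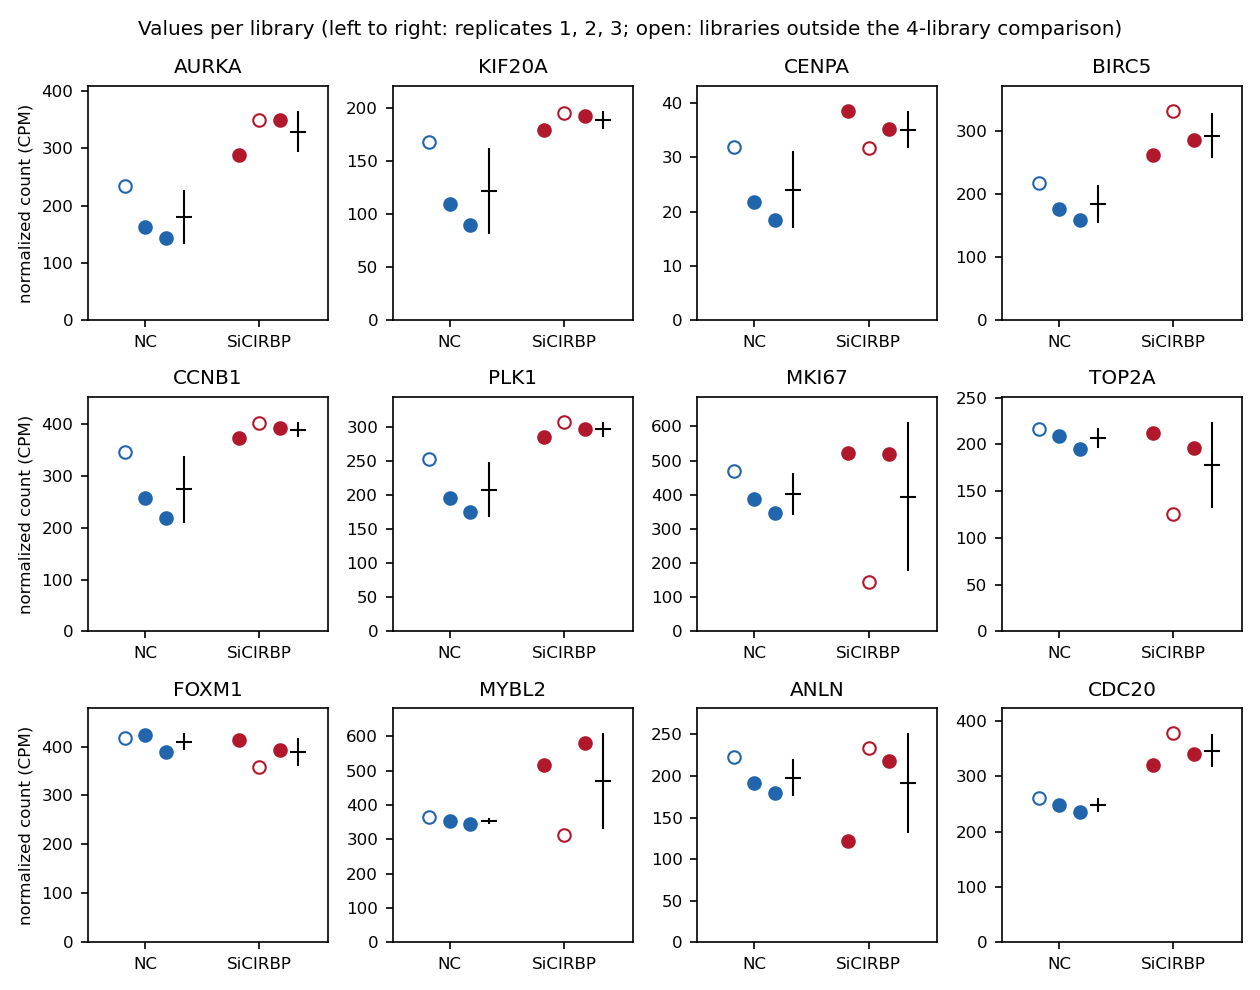
Normalised counts (CPM) of 12 of the genes in each library, replicates 1, 2 and 3 from left to right within NC (blue) and SiCIRBP (red). Open circles are NC_1 and SiCIRBP_2, which the 4-library comparison leaves out, and the bars give the mean ± SD of all 3 libraries of a group. In AURKA, BIRC5, CCNB1, PLK1, KIF20A and CDC20 the groups do not overlap, while MKI67, TOP2A and MYBL2 drop in SiCIRBP_2 only and ANLN in SiCIRBP_1 only.

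The proliferation antigen MKI67, which coats mitotic chromosomes and is widely used to count cycling cells, was at 469, 388 and 347 CPM in NC and at 523, 143 and 518 CPM in SiCIRBP. SiCIRBP_2 was the lowest of the 6 libraries and SiCIRBP_1 and SiCIRBP_3 the highest. Its log2 fold change was accordingly 0.50 ± 0.08 over 4 libraries (adjusted p = 0.0139) and -0.02 ± 0.42 over 6 (adjusted p = 0.98). TOP2A, the topoisomerase that untangles sister chromatids, was at 216, 209.5 and 195 CPM in NC and at 212, 126 and 196 CPM in SiCIRBP, and again SiCIRBP_2 was low (0.01 ± 0.08 over 4 libraries, -0.22 ± 0.19 over 6).

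SiCIRBP_2 did not move the list in 1 direction. It held the highest SiCIRBP value for 26 of the 47 genes and the lowest for 18, against 40.1% and 42.2% of all genes. Set against the mean of the other SiCIRBP libraries on the log2 scale, it was lower by most in MKI67 (-1.85), MYBL2 (-0.80), TOP2A (-0.69), CENPF (-0.55), CENPE (-0.55) and ASPM (-0.55), and higher by most in PTTG1 (0.63), UBE2C (0.62), ANLN (0.52), AURKB (0.50) and MAD2L1 (0.48). In NC_1 the genes raised most over NC_2 and NC_3 were KIF20A (0.75), CENPA (0.65), AURKA (0.61) and DLGAP5 (0.59), and CDC25B (-0.39) was the most reduced. Those raised most were all among the 6 highest 4-library fold changes of the list. Both measures take NC_2 and NC_3 as the reference, so part of this overlap is built in.

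A further 60 genes of G2-M, kept apart from the list above, moved the same way by less. Over the 4 libraries 18 rose and 1 fell, with a median of 0.24, beside the 9.62% and 9.76% of all genes. TUBB4B, a beta-tubulin of a family with closely alike members that the counting could split, was at 973, 642 and 585 CPM in NC and at 1379.6, 646 and 1388 CPM in SiCIRBP, so that SiCIRBP_2 lay among the controls (1.17 ± 0.08, adjusted p = 0.0026). TACC3, a spindle protein that AURKA phosphorylates, was at 225, 175 and 165 CPM in NC and at 285, 265 and 277 CPM in SiCIRBP (0.73 ± 0.08). The gene that fell was CIT, citron kinase of the midbody (-0.32 ± 0.08, adjusted p = 0.0415).

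Genes of the G1-S programme, the wave that precedes G2-M, showed a smaller and more mixed difference. Of 48, 9 rose and 3 fell over the 4 libraries, beside 9.62% and 9.76% of all genes, and the median was 0.12. FEN1, the flap nuclease of lagging-strand replication, was at 181, 125 and 117 CPM in NC and at 195, 234 and 206 CPM in SiCIRBP (0.73 ± 0.08). CDT1, a licensing factor that is present in G1, was at 106, 158 and 182 CPM in NC and at 94.3, 128 and 94.7 CPM in SiCIRBP, with NC_1 below SiCIRBP_2 (-0.85 ± 0.10, adjusted p = 0.0059). Of 16 subunits of the anaphase-promoting complex 3 rose, beside the same 9.62% of all genes. They were led by CDC23 (0.51 ± 0.09) and ANAPC15 (0.49 ± 0.12), and the median of the 16 was 0.11.

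Among 23 tested genes of the DREAM repressor and of cell cycle exit, 6 rose and 1 fell, beside 9.62% and 9.76% of all genes. The median was -0.09 over 4 libraries and 0.20 over 6, so its sign depends on the libraries. CDKN2C, an inhibitor of CDK4 and CDK6, was at 34.6, 21.5 and 20.0 CPM in NC and at 39.1, 60.2 and 39.4 CPM in SiCIRBP (0.92 ± 0.11). CCND1, the G1 cyclin D1, was at 195, 172 and 138 CPM in NC and at 245, 180.1 and 304 CPM in SiCIRBP, with SiCIRBP_2 inside the control range (0.83 ± 0.14). RBL2, the pocket protein p130 of DREAM, was at 55.9, 64.3 and 68.7 CPM in NC and at 51.8, 22.2 and 50.9 CPM in SiCIRBP (-0.37 ± 0.09, adjusted p = 0.0339). No gene of these 4 lists was called over 6 libraries by edgeR, where 0.0% of all genes were called. In the order given, 23 of 60, 10 of 48, 3 of 16 and 8 of 22 had an unadjusted p under 0.05. Of these, 21, 9, 3 and 6 were higher. The share of all genes at that threshold was 23.7% in either direction. DESeq2 over 6 libraries called 10 other G2-M genes, 6 G1-S genes, 1 anaphase-promoting complex subunit and 3 DREAM and exit genes. All were higher, where DESeq2 called 4.91% of all genes higher and 5.09% lower.

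**Figure D4:**
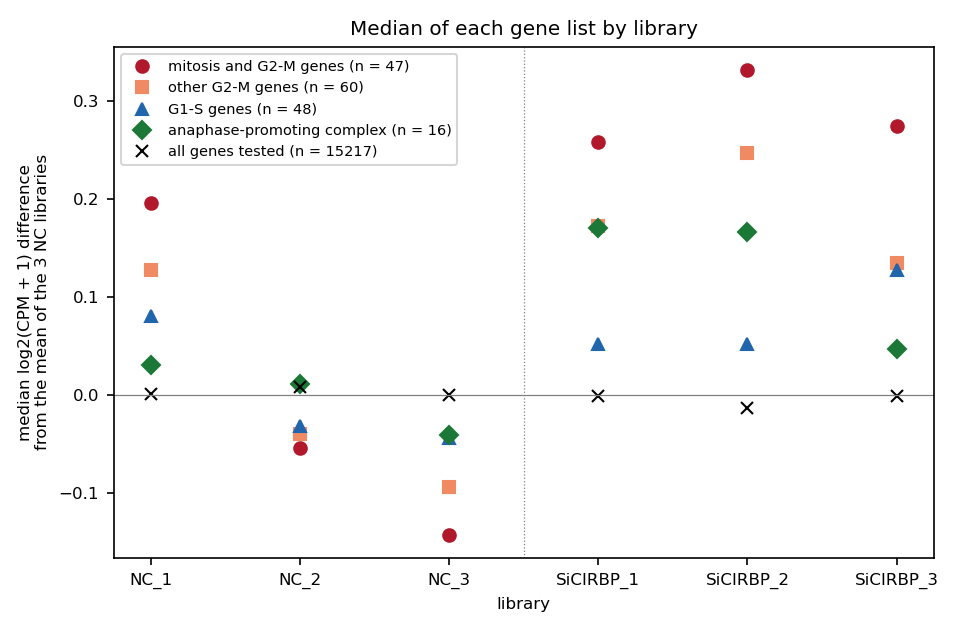
Median difference of log2(CPM + 1) from the mean of the 3 NC libraries, on the y axis, for 4 lists and for all 15217 genes tested, in each library on the x axis. The 47 mitosis and G2-M genes stand highest in all 3 SiCIRBP libraries (0.26, 0.33 and 0.27) and also in NC_1 (0.20), while all genes stay within 0.02 of 0.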

How the data were processed

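The authors trimmed reads with fastp, aligned with HISAT and quantified with RSEM on hg38 per the labels, whose versions, settings, strand option and annotation release are not given in the sources used here. They deposited an estimated count and a TPM value per gene and library. Their ratio, log2 and p-value columns and mean TPM columns were not used, nor was the deposited table of their own comparison alone.

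Estimated counts were rounded and tested in edgeR 4.0.16 (R 4.3.3) with TMM, filterByExpr and the quasi-likelihood test, and adjusted over all genes tested. The SE is the size of the log2 fold change over the square root of F. DESeq2 1.42.0 was an alternative. The procedure was tested on simulated data with no deviant library and with larger changes than any of the list over 4 or 6 libraries. That test therefore does not speak to NC_1 and SiCIRBP_2 or to small changes. Single genes over 6 libraries used log2(CPM + 1) and exact permutation. Shared words and positions came from GENCODE 29.

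The members and lists were chosen with earlier results of these data known, so they are not independent support. Named with values were 10 members set by name, the smallest p of each role group, the 5 highest and 5 lowest fold changes, members without overlap between groups, and up to 2 genes per direction of each other list. Other members are named for completeness or were chosen after their values were seen. Replicate numbers were not used as pairs. Alternatives (DESeq2, RLE, other filters, TPM, left-out libraries, the replicate block) are given at the end.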

Additional observations from a re-analysis of the deposited data

How the results depend on the processing

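The count of mitosis and G2-M genes called depended on the libraries. Beside the 24 called over 4 libraries, 0 were called with all 6 and 5 by DESeq2 with all 6. Leaving out 1 of the 4 libraries gave between 0 (without NC_3) and 36 (without SiCIRBP_1) calls, with 3 without NC_2 and 35 without SiCIRBP_3, and in these fits the lone library is assumed to vary like the other group. The calls over all genes moved alike: 0.403% were called without NC_3, 1.04% without NC_2, 44.3% without SiCIRBP_1 and 40.2% without SiCIRBP_3. Over 6 libraries DESeq2 called 5, edgeR without a filter on low counts called 2 (3.15% of all genes), and leaving out 1 library gave between 0 and 4 (4 without SiCIRBP_2, with 7.20% of all genes). The other G2-M genes went from 19 calls to 0 with 6 libraries, 10 by DESeq2 with 6, and between 1 and 38 with 1 library left out. The G1-S genes went from 12 to 0, 6, and between 0 and 26. The anaphase-promoting complex subunits went from 3 to 0, 1, and between 0 and 7, and the DREAM and exit genes from 7 to 0, 3, and between 0 and 13. In all 4 lists the low counts came without NC_2 or NC_3 and the high ones without SiCIRBP_1 or SiCIRBP_3. CIRBP kept its direction and lost its call with all 6 libraries (-1.07, adjusted p = 0.103), and with 1 library left out ran from -0.94 to -0.70, not called without NC_2 (-0.85, adjusted p = 0.0576) or NC_3 (-0.77, adjusted p = 0.106). The cause of these changes was not tested.

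On deposited TPM 10 genes of the list had groups that did not overlap in place of 16, with 8 higher and 2, FOXM1 and ECT2, lower, where 8.61% of all genes were higher and 22.6% lower. Per library the median of the list was 0.18, 0.064 and 0.18 on deposited TPM, 0.39, 0.43 and 0.37 against NC_2 and NC_3 only, and 0.052, 0.10 and 0.088 against NC_1 only, an alternative added after the data were seen. With 6 libraries the medians were 0.26 for the centromere and kinetochore group, 0.23 for the spindle assembly factors and -0.12, a reversed sign, for MKI67 and TOP2A. Single genes changed sign as follows. MKI67 was at -0.024 over 6 libraries in edgeR and -0.020 in DESeq2. TOP2A was at -0.22 and -0.21 in the same fits and at -0.0043 without a filter. With 1 of the 4 libraries left out TOP2A ran from -0.052 to 0.064, FOXM1 from -0.072 to 0.048, ANLN from -0.61 to 0.22 and CDC25B from -0.23 to 0.054. The cause was not tested. All 27 genes named by rule kept direction and call with RLE size factors, DESeq2 on the 4 libraries and a minimum of 10 counts in every library. Every gene of the list had at least 297 estimated counts in each library, and counting error was not separated from the spread between libraries.

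Replicate numbers in the labels run alike in both groups, but deviations of same-numbered libraries from their group means correlated at -0.118, 0.006 and -0.026 over 15217 genes, so the numbers are not taken to pair them. With the replicate block over 6 libraries edgeR called 0 genes of the list and 0 other G2-M genes. It also called 0 G1-S genes, 0 anaphase-promoting complex subunits and 0 DREAM and exit genes. Of all genes that fit called 0.00657% higher and 0.0% lower, so these counts of 0 are not particular to the lists. In it CIRBP was at -1.14 (adjusted p = 0.131), MKI67 at -0.22 and TOP2A at -0.25.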

Other observations

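The ratio of estimated count to TPM gives the transcript length that the quantification assigned to a gene in a library, up to a factor of the library. Between SiCIRBP_1 and SiCIRBP_3 and the NC_2 and NC_3 libraries its log2 difference had a median of -0.01 over the 47 genes and of -0.01 over all genes tested, with a range of -0.18 to 0.59 over the 47. CENPE was the highest (0.59), and CENPF the lowest (-0.18). Estimated counts of genes that share transcript sequence with members ran from 740 to 1295 for AC068831.7 (PRC1), from 1192 to 1786 for AC087721.2 (NUSAP1) and from 0 to 5 for CDC20P1 (CDC20).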
